A study of Mus musculus with 2 samples.

Results

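The genes of MHC class I antigen presentation were described in dysplastic mouse gastric organoids exposed to the drug pyrvinium. They are 10 genes taken by symbol from a fixed list, and all 10 were found among the 32227 genes of the count matrices: B2m, H2-K1, H2-D1, Tap1, Tap2, Tapbp, Psmb8, Psmb9, Psmb10 and Nlrc5. The series asked which cells of the Meta4 organoid line respond to pyrvinium, an anthelmintic compound, before the organoids lose their shape. Meta4 organoids grow from stomach corpus of mice with an inducible Cre recombinase driven by Mist1 (Mist1-CreERT2), after induction of dysplasia, and both groups share this origin. One group received pyrvinium and the other the solvent DMSO, for 1 day each, and each group is 1 single-cell RNA library made by the PIPseq method, which captures cells in emulsion and counts the 3′ ends of transcripts. The labels do not say how many animals or cultures stand behind each library.

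With 1 library per group there was no replicate, so no difference was tested. Intervals are 95% and cover counting error only. Values are counts per 1000000 (CPM) of the counts summed over kept cells, and "higher" or "lower" is used for a gene at least 1.5-fold apart between the libraries with its whole interval on that side of 1. Cells numbered 854 in the pyrvinium library, at a median depth of 31517 counts, and 1602 in the DMSO library, at a median depth of 18592.5 counts. Their sums were 37046673 and 39980497 counts, and 0 kept barcodes occurred in both. Mitochondrially encoded genes took 1.63% of the pyrvinium sum and 2.57% of the DMSO sum, and ribosomal protein genes 29.7% and 25.2%. The part of these differences in depth and composition in the results was not tested.

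MHC class I molecules carry peptides from inside the cell to its surface, where CD8 T cells and natural killer cells read them. Peptides are cut by the proteasome, which in cells exposed to interferon exchanges its catalytic subunits for those of the immunoproteasome, and they are pumped into the endoplasmic reticulum by the TAP transporter. There tapasin helps to load them onto a heavy chain paired with beta-2-microglobulin. The heavy chain, B2m, TAP and immunoproteasome genes are induced by interferons, and NLRC5 is a transcriptional coactivator of many of them that works through the X2 and CCAAT boxes of their promoters.

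The promoters of the light chain, both heavy chains and the transporter gene Tap1 are shown because these boxes can be read in them beside the levels given further on. They are the RefSeq windows from 250 bases before to 50 bases after each gene start on build GRCm38.p6, written 5′ to 3′ on the strand of the gene. The deposited counts use GRCm39, so no coordinate below applies to them. Capitals mark matches on either strand to AANNGAAA (the core of interferon regulatory factor sites), TGACG (the core of the X2 box), CCAAT (the CCAAT box) and the NF-kappaB motif. Where motifs overlap, the capitals run together.
B2m, chr2:122147437-122147736, plus strand: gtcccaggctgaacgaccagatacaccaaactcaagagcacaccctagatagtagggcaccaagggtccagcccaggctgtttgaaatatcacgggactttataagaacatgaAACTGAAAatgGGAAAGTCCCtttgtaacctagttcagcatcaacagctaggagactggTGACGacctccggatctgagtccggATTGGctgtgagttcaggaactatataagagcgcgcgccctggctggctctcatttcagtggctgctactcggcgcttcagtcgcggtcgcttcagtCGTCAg
H2-K1, chr17:34000298-34000597, minus strand: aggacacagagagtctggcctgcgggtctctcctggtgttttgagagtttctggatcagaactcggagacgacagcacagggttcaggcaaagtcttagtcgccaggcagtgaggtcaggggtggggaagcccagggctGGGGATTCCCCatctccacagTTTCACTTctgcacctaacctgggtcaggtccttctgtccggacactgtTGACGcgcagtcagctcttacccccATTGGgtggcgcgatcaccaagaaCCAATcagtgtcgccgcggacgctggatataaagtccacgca
H2-D1, chr17:35262844-35263143, plus strand: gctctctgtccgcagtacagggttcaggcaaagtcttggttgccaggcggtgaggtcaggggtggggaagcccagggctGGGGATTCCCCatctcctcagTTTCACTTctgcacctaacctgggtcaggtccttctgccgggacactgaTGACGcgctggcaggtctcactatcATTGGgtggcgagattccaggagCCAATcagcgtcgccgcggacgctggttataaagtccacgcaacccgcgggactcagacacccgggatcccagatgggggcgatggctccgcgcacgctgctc
Tap1, chr17:34187306-34187605, plus strand: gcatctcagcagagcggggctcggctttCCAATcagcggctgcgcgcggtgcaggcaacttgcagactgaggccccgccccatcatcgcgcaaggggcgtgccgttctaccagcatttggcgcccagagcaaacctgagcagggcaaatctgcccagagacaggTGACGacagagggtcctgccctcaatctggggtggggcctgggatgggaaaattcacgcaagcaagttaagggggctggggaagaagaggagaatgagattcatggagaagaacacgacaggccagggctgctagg

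Of the 10 genes, 8 had a window in the RefSeq table. AANNGAAA was found in 3 of the 8 windows (B2m, H2-K1 and H2-D1), against 24.2% of all 27025 promoters in the table. TGACG was found in 5 of 8 and in 21.0% of all promoters, CCAAT in 6 of 8 and in 37.9%, and the NF-kappaB motif in 3 of 8 and in 8.18%. TGACG and CCAAT occurred in the same window in 5 of 8, against 8.05% of all promoters. The Tap1 and Psmb9 windows share 275 bases on opposite strands, so both count the same TGACG and CCAAT matches. In the B2m window the interferon regulatory factor core lies 137 bases, the X2 core 78 bases and the CCAAT box 53 bases before the start. In H2-D1 the same 3 motifs lie 150, 101 and 76 bases before it. Tap1 and Psmb9 do not share this arrangement. In Tap1 CCAAT lies 222 bases and TGACG 86 bases before the start, in the reverse order. In Psmb9 TGACG lies 144 bases and CCAAT 8 bases before it, further apart than in B2m and H2-D1. A match describes letters in these windows and is not a measured binding site.

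Transcripts of the transporter and of 2 immunoproteasome subunits stood higher in the pyrvinium library, while the immunoproteasome subunit gene Psmb10 pointed the other way. The 10 genes together took 45198 counts, or 0.122%, of the pyrvinium sum and 36810 counts, or 0.0921%, of the DMSO sum. At least 1.5-fold higher with pyrvinium were 4 of 10 (Tap1, Tap2, Psmb8 and Psmb9), where 7.57% of the 15586 genes with enough counts were called higher. At least 1.5-fold lower were 0 of 10, where 15.5% of all genes were called lower. The median log2 ratio of the 10 genes was 0.50, against -0.08 over all genes compared. With the limit set at a log2 ratio of 0.32 in either direction, 7 of the 10 were higher, where 14.5% of all genes were, and 1 was lower, where 25.3% of all genes were.

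**Figure D1:**
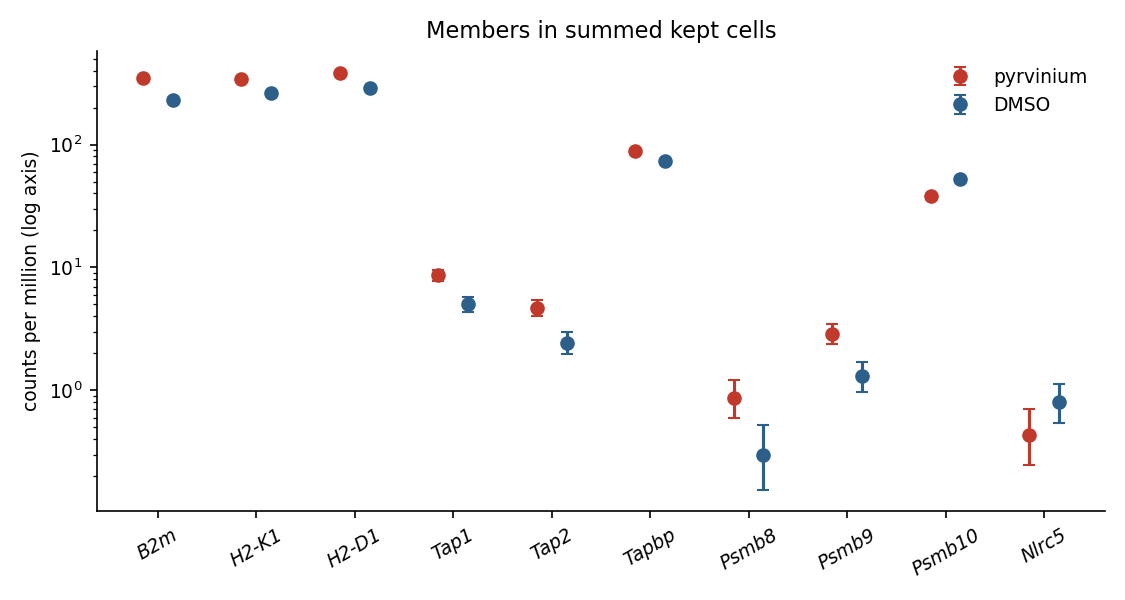
Level of each of the 10 genes in CPM of summed counts on a log axis, pyrvinium library (red) left of DMSO library (blue), with 95% Poisson intervals that cover counting error only. Tap1 stood at 8.61 CPM with pyrvinium and 5.05 CPM with DMSO, and Psmb10 at 37.8 CPM with pyrvinium and 52.0 CPM with DMSO.

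The light chain and both classical heavy chains lay above their DMSO levels in the pyrvinium library, each by less than 1.5-fold. B2m (ENSMUSG00000060802), which encodes beta-2-microglobulin, stood at 345.5 CPM (interval 339.6 to 351.5) with pyrvinium and 231.1 CPM (226.4 to 235.9) with DMSO. Its ratio of 1.495 (1.455 to 1.536) lies just under the limit, and 89.9% of all genes compared had a lower ratio. It passed 1.5-fold in 3 of the 11 other ways of scaling or choosing cells. Its log2 ratio, 0.58 in the main values, was 0.40 (0.33 to 0.47) in cells from the pyrvinium threshold to 30000 counts in both libraries. With equal weight for each shared cluster it was 0.44. H2-K1 (ENSMUSG00000061232), a classical heavy chain, stood at 344.6 CPM (338.6 to 350.6) with pyrvinium and 264.1 CPM (259.1 to 269.2) with DMSO, a ratio of 1.305. H2-D1 (ENSMUSG00000073411), the other classical heavy chain measured here, stood at 385.4 CPM (379.1 to 391.7) with pyrvinium and 289.99 CPM (284.7 to 295.3) with DMSO, a ratio of 1.329. For none of these 3 genes do the counting intervals of the libraries overlap.

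The balance between the heavy chains was close in the libraries. H2-K1 made up 47.2% (46.6 to 47.8) of the H2-K1 and H2-D1 counts with pyrvinium and 47.7% (47.0 to 48.3) with DMSO, and these intervals overlap. Heavy chain genes are close relatives, and counting could split reads between them. Over the last 500 bases of their transcripts in the GENCODE M21 annotation, 0.443% of the 50-base words of H2-K1 also occur in H2-D1, and 9.53% of those of H2-D1 occur in other genes. The strain of the organoids is not given in the sources used here, and heavy chain alleles differ between mouse strains, so the levels of both carry that uncertainty. The last 500 bases of the other 8 genes shared 0 such words with another gene.

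Both subunits of the peptide transporter were higher in the pyrvinium library, from low counts. Tap1 (ENSMUSG00000037321) stood at 8.61 CPM (7.69 to 9.61) with pyrvinium and 5.05 CPM (4.38 to 5.80) with DMSO, 1.70-fold higher (1.42 to 2.04). Tap2 (ENSMUSG00000024339), its partner subunit, stood at 4.70 CPM (4.02 to 5.45) with pyrvinium and 2.45 CPM (1.99 to 2.99) with DMSO, 1.92-fold higher (1.49 to 2.48). Tap1 gave 64.7% (60.3 to 68.9) of the counts of the pair with pyrvinium and 67.3% (61.7 to 72.6) with DMSO. These intervals overlap, so a change of balance within the pair was not detectable at this depth. Tap2 stayed past 1.5-fold in all 11 alternatives, whereas Tap1 had a log2 ratio of 0.45 with equal cluster weights and 0.55 after subtraction of the free RNA profile from barcodes of 10 to 100 counts, both under the limit. That profile is sparse: even B2m had only 96 counts in it with pyrvinium and 53 with DMSO. Tapbp (ENSMUSG00000024308), which encodes tapasin, stood at 89.3 CPM (86.2 to 92.4) with pyrvinium and 73.6 CPM (70.9 to 76.3) with DMSO, a ratio of 1.21 (1.15 to 1.28) that is under the limit.

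The 3 immunoproteasome subunits did not share a direction. Psmb9 (ENSMUSG00000096727), which takes the place of the constitutive subunit Psmb6, had 107 counts with pyrvinium and 52 with DMSO. That is 2.89 CPM (2.37 to 3.49) with pyrvinium and 1.30 CPM (0.971 to 1.71) with DMSO, 2.22-fold higher (1.58 to 3.16). Psmb8 (ENSMUSG00000024338), which replaces Psmb5, had 32 counts with pyrvinium and 12 with DMSO, 2.88-fold higher with a wide interval (1.44 to 6.14). Psmb10 (ENSMUSG00000031897), which replaces Psmb7, stood at 37.8 CPM (35.9 to 39.9) with pyrvinium and 52.0 CPM (49.8 to 54.3) with DMSO, a ratio of 0.728 (0.680 to 0.779). Its log2 ratio of -0.46 lies below that of the other 2 subunits, 1.52 for Psmb8 and 1.15 for Psmb9, and their intervals do not overlap with its own. In cells of matched depth the intervals of Psmb9 (log2 ratio 0.82) and Psmb8 (1.21) included 0. With equal cluster weights that of Psmb8 did too, although its width was taken from summed counts. Psmb10 there passed the limit as lower, at -0.66.

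Set against the subunit that each replaces, the same split was seen. Psmb9 made up 0.680% (0.558 to 0.822) of the Psmb9 and Psmb6 counts with pyrvinium and 0.269% (0.201 to 0.353) with DMSO. Psmb8 made up 0.310% (0.212 to 0.437) of its counts with Psmb5 in the pyrvinium library and 0.159% (0.0824 to 0.278) in the DMSO library. Those 2 intervals overlap, and Psmb5 itself stood at 278 CPM with pyrvinium and 188 CPM with DMSO. Psmb10 made up 12.4% (11.8 to 13.0) of its counts with Psmb7 in the pyrvinium library and 16.7% (16.0 to 17.4) in the DMSO library. Psmb7 stood at 267 CPM with pyrvinium and 259 CPM with DMSO. These shares are of counts and are read between libraries for 1 pair at a time, not between pairs.

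Nlrc5 (ENSMUSG00000074151), the coactivator gene, was too rare for a difference to be read. It had 16 counts with pyrvinium and 32 with DMSO, or 0.432 CPM (0.247 to 0.701) with pyrvinium and 0.800 CPM (0.547 to 1.13) with DMSO. Its log2 ratio was -0.89, and the interval of the fold, 0.277 to 1.013, includes 1. A difference was not detectable at this depth, and in cells of matched depth the log2 ratio was -0.19.

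The genes that surround the 10 in the pathway were read from lists of their own. Of 7 genes listed under other peptide loading and trimming, not all of them specific to these steps, 0 were higher and 0 lower, with a median log2 ratio of -0.07. Among them the loading complex oxidoreductase gene Pdia3 stood at 241.8 CPM with pyrvinium and 347.2 CPM with DMSO, the translocon subunit gene Sec61b at 717 and 928 CPM, and the chaperone gene Calr at 417 and 438 CPM. Of 15 other class I heavy chain genes, 10 had enough counts; 2 of these were higher and 0 lower, and the median was 0.38. Those were H2-T22, at 15.8 CPM with pyrvinium and 9.10 CPM with DMSO, and Mr1, 1.59-fold higher, which presents metabolites of microbes. H2-T23, the mouse counterpart of HLA-E, stood at 32.1 CPM with pyrvinium and 22.4 CPM with DMSO, and H2-Q10 at 10.5 and 12.3 CPM.

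No other gene of the proteasome on the lists passed the limit, although single genes lay off the middle of all genes. Of the 3 constitutive catalytic subunits 0 were called, with a median log2 ratio of 0.04. Psmb5, given above, had a log2 ratio of 0.56 (0.52 to 0.61), close to that of B2m (0.58), and Psmb6 stood at 422 CPM with pyrvinium and 482 CPM with DMSO. Of 11 other core subunits 0 were called (median -0.17), and of 9 activator and assembly genes 0 were called (median -0.06). Pomp, the maturation protein that assembles new proteasomes, stood at 236 CPM with pyrvinium and 326 CPM with DMSO, a log2 ratio of -0.47.

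**Figure D2:**
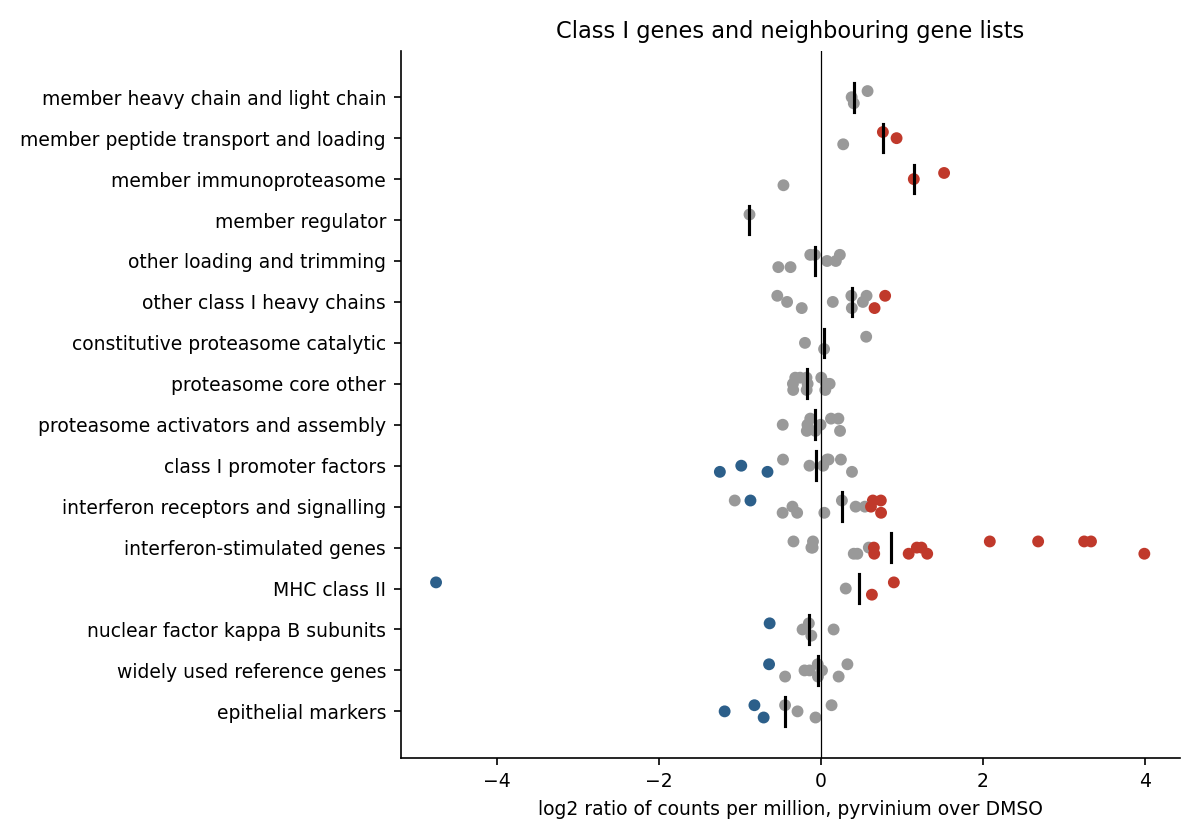
log2 ratio of pyrvinium over DMSO for each gene with 20 or more counts over both libraries (points), by gene list, with the median of each list (black bars). The vertical line marks 0, and the median of all 15586 genes compared (-0.08) is not drawn. The 10 genes are spread over several lists, so their joint median of 0.50 is not drawn either. The interferon-stimulated genes have a median of 0.87 and the list of other loading and trimming genes -0.07.

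Factors known to act upstream of these genes were mixed. Of 10 factors that bind class I promoters, 0 were higher and 3 lower: Irf1, at 2.67 CPM with pyrvinium and 6.33 CPM with DMSO, Nfyc at 20.1 and 39.6 CPM, and Nfya at 3.78 and 5.95 CPM. NFYA and NFYC are subunits of the factor that binds the CCAAT box. Of 5 NF-kappaB subunit genes 0 were higher and 1 was lower, Rela, at 11.1 CPM with pyrvinium and 17.2 CPM with DMSO. Of 13 interferon receptor and signalling genes, 4 were higher, among them Ifnar2, Stat2 and Irf9, and 1 was lower (Ifngr1, at 21.1 CPM with pyrvinium and 38.5 CPM with DMSO). IFNAR2 is a chain of the type I interferon receptor, and the products of Stat2 and Irf9 act downstream of it.

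Irf9 stood at 5.37 CPM with pyrvinium and 3.20 CPM with DMSO. Of 28 interferon-stimulated genes outside the class I pathway, 18 had enough counts; 11 were higher and 0 lower, with a median log2 ratio of 0.87. The 5 interferon genes read, none of them an interferon alpha gene, were close to undetected. Of these, 4 had 0 counts in both libraries, for which the upper limit of the interval is 0.0996 CPM with pyrvinium and 0.0923 CPM with DMSO. Ifne had 1 count with pyrvinium and 0 with DMSO. Class II genes were scarce. Their invariant chain gene Cd74 stood at 2.29 CPM with pyrvinium and 1.23 CPM with DMSO, and H2-Ab1 had 1 count with pyrvinium and 29 with DMSO.

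Markers of other cell types were read because immune cells carry much class I RNA. Of 16 immune markers, 3 had enough counts, and their 16 summed levels came to 30.8 CPM with pyrvinium and 23.1 CPM with DMSO, of which Cd68 gave 28.3 and 21.0 CPM. Of these 3, 1 was higher and 0 lower: Ptprc, the pan-leukocyte gene, with 28 counts with pyrvinium and 14 with DMSO. Lyz2 and Nkg7 had 0 counts in both libraries. Of 4 endothelial markers 1 was higher, Pecam1, at 2.08 CPM with pyrvinium and 1.28 CPM with DMSO, and 0 were lower. Cdh5 stood at 56.6 CPM with pyrvinium and 41.7 CPM with DMSO. Kdr had only 9 counts with pyrvinium and 11 with DMSO, and Emcn 11 and 13 counts. Of 7 epithelial markers 0 were higher and 3 lower (Krt8, Krt19 and Elf3), with a median log2 ratio of -0.44. Krt19 stood at 906 CPM with pyrvinium and 2060 CPM with DMSO, and Epcam, with 377 CPM with pyrvinium and 344 CPM with DMSO, was the 1 marker of the 7 with a ratio above 1. The part of these markers in the class I levels was not tested. Of 9 widely used reference genes, 0 were higher and 1 was lower, Actb, at 1086 CPM with pyrvinium and 1688 CPM with DMSO.

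Counted cell by cell at equal depth, B2m, H2-K1, H2-D1, Tap1 and Tapbp were found in a larger share of pyrvinium than of DMSO cells, and Psmb10 in a smaller one, with intervals that do not overlap. In cells from the pyrvinium threshold to 30000 counts, however, the intervals of H2-D1, Tap1 and Tapbp overlapped. With thinning to 2500 counts those of Tap1, Tapbp and Psmb10 overlapped. Each thinning was a single random draw, and the draw at 5000 counts set the libraries further apart for Tap1 than the summed counts did. Every kept cell was thinned at random to 5000 counts, so that 0 cells were left out, and shares have exact Clopper-Pearson intervals. B2m was counted in 75.1% (72.0 to 77.9) of pyrvinium cells and 63.8% (61.4 to 66.2) of DMSO cells. H2-K1 was counted in 79.4% (76.5 to 82.1) of pyrvinium cells and 68.9% (66.6 to 71.2) of DMSO cells, and H2-D1 in 79.2% (76.3 to 81.8) and 72.2% (70.0 to 74.4). Without thinning these shares were 98.4% with pyrvinium and 94.3% with DMSO for B2m, 99.5% and 96.3% for H2-K1, and 99.6% and 96.4% for H2-D1.

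B2m, H2-K1 and H2-D1 were all counted in 49.1% (45.7 to 52.5) of thinned pyrvinium cells and 34.1% (31.8 to 36.5) of thinned DMSO cells. None of the 3 was counted in 11 of 854 pyrvinium cells (1.29%) and 57 of 1602 DMSO cells (3.56%). The median summed count of the 3 genes was 5 in pyrvinium cells (quartiles 3 and 7) and 4 in DMSO cells (quartiles 2 and 5), so the 2 distributions overlap widely. A population that lacks these transcripts altogether could not be told from cells in which they were missed at this depth.

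**Figure D3:**
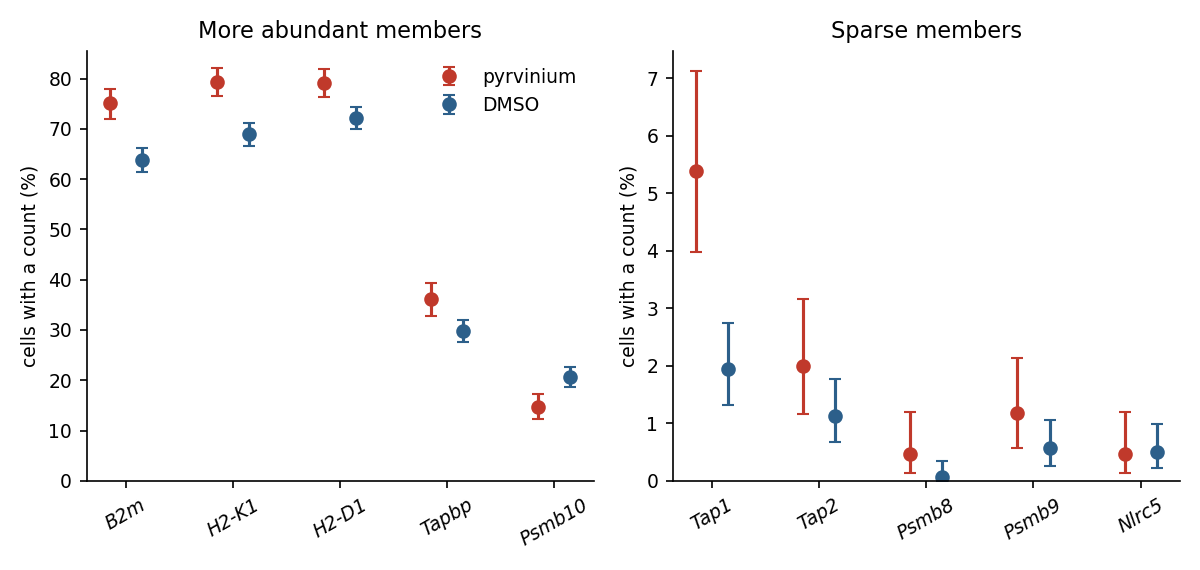
Share of cells with at least 1 count of each gene after thinning each cell to 5000 counts, in percent, pyrvinium cells (red, n = 854) left of DMSO cells (blue, n = 1602), with exact binomial 95% intervals. B2m reached 75.1% with pyrvinium and 63.8% with DMSO, and Psmb10 14.6% with pyrvinium and 20.7% with DMSO.

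The rarer members gave lower shares. Tap1 was counted in 5.39% (3.97 to 7.12) of thinned pyrvinium cells and 1.94% (1.32 to 2.74) of thinned DMSO cells, and Tap1 or Tap2 in 61 of 854 pyrvinium and 48 of 1602 DMSO cells. In this draw Tap1 averaged 0.0550 counts per pyrvinium cell and 0.0194 per DMSO cell. That is further apart than its 8.61 and 5.05 CPM of summed counts, so its shares depend on the draw. Tapbp was counted in 36.1% (32.8 to 39.4) of pyrvinium cells and 29.8% (27.5 to 32.1) of DMSO cells. Psmb10 was counted in 14.6% (12.3 to 17.2) of pyrvinium cells and 20.7% (18.7 to 22.7) of DMSO cells, although without thinning its shares were 64.5% with pyrvinium and 55.0% with DMSO, an order opposite to that of the thinned shares and of the CPM. Tap2, Psmb8, Psmb9 and Nlrc5 were each counted in at most 1.99% of thinned cells of either library, and for these 4 the intervals of the libraries overlap. Unthinned, Tap1 had 26.0% with pyrvinium and 10.7% with DMSO, Tap2 15.9% and 5.62%, Tapbp 85.4% and 69.2%, and Psmb8 2.69% and 0.687%. Unthinned, Psmb9 was counted in 80 pyrvinium and 48 DMSO cells, and Nlrc5 in 16 pyrvinium and 32 DMSO cells.

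Free RNA carried the same transcripts. In barcodes with 100 to 500 counts, too few for a cell, B2m stood at 297 CPM in the pyrvinium library and 176 CPM in the DMSO library, H2-K1 at 342 and 265 CPM, H2-D1 at 306 and 217 CPM, and Tap1 at 10.3 and 5.70 CPM. These levels are near those in cells and lie in the same order between the libraries. No cell type that lacks class I genes was found to serve as a background. If 10% of a cell's counts were free RNA, it alone would give a share of 13.8% of pyrvinium and 8.42% of DMSO cells for B2m, 15.7% and 12.4% for H2-K1, and 0.511% and 0.285% for Tap1. The lowest share of B2m in any cluster was 69.4% with pyrvinium and 57.9% with DMSO, both in cluster 2 described next. The true share of free RNA was not measured.

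Cells of both libraries were grouped into 6 clusters without use of the 10 genes or of the listed pathway genes, and the clusters were left unnamed. Each gene was first centred and scaled within its library. Cells of the same cluster are thus alike relative to their own library, and not necessarily in level. Cluster 1, led by Cnfn and Ly6c1, held 432 pyrvinium and 192 DMSO cells. Cluster 2, led by Tyms and Mcm7, held 36 pyrvinium and 560 DMSO cells, and cluster 3, led by Cdc20 and Ccnb1, held 106 pyrvinium and 234 DMSO cells. Clusters 4 (15 pyrvinium and 317 DMSO cells) and 5 (0 pyrvinium and 296 DMSO cells) were almost all of the DMSO library, and cluster 6 (265 pyrvinium and 3 DMSO cells) almost all of the pyrvinium library, so cluster and library cannot be told apart there. The composition of the libraries thus differed, and ratios within clusters were taken only where both had at least 30 cells.

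In all 3 shared clusters B2m lay above its DMSO level in pyrvinium cells. Its log2 ratio was 0.47 in cluster 1, 0.40 in cluster 2 and 0.45 in cluster 3, where the medians of all genes were -0.14, -0.20 and -0.09. The heavy chains followed less evenly: H2-K1 had 0.53, 0.21 and 0.16, and H2-D1 had 0.66, -0.10 and 0.27. The interval of H2-D1 in cluster 2, -0.26 to 0.06, includes 0. Summed over the 3 genes, cluster 1 stood at 1035 CPM with pyrvinium and 706 CPM with DMSO, cluster 2 at 768 and 688 CPM, and cluster 3 at 1024 and 836 CPM.

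**Figure D4:**
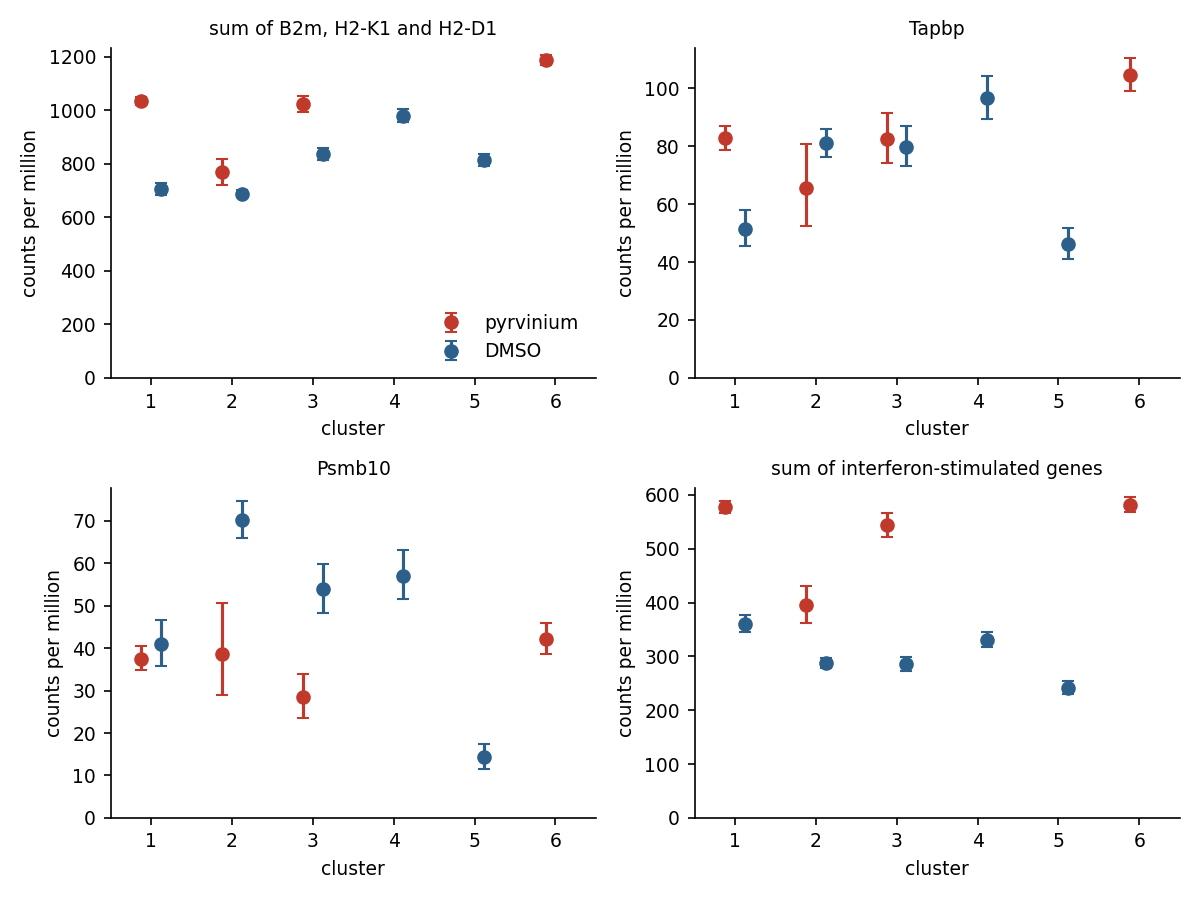
Levels by cluster in CPM of summed counts, pyrvinium (red) left of DMSO (blue), with 95% Poisson intervals, for clusters with at least 30 cells of a library. Panels show the sum of B2m, H2-K1 and H2-D1, then Tapbp, Psmb10 and the sum of the interferon-stimulated genes. The sum of B2m, H2-K1 and H2-D1 ran between 768 and 1188 CPM with pyrvinium and between 688 and 980 CPM with DMSO.

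Within a library the clusters differed too. In pyrvinium cells the sum of the 3 genes was 1188 CPM (1168 to 1207) in cluster 6 and 768 CPM (722 to 817) in cluster 2, and in DMSO cells it was 980 CPM (957 to 1004) in cluster 4 and 688 CPM (675 to 702) in cluster 2. Cluster 2, whose leading genes Tyms and Mcm7 act in DNA synthesis and replication, thus had the lowest sum of the clusters shown in either library, although among DMSO cells its interval overlaps that of cluster 1 (684 to 728). It held 4.22% of pyrvinium cells and 35.0% of DMSO cells.

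Tapbp and Psmb10 depended on the cluster. Tapbp stood at 82.6 CPM with pyrvinium and 51.5 CPM with DMSO in cluster 1, a log2 ratio of 0.68, but its ratios in cluster 2 (-0.31) and cluster 3 (0.05) had intervals that include 0. Psmb10 stood at 37.5 CPM with pyrvinium and 40.9 CPM with DMSO in cluster 1, where its log2 ratio of -0.12 had an interval that includes 0. In cluster 2 it stood at 38.7 CPM with pyrvinium and 70.2 CPM with DMSO (log2 ratio -0.86), and in cluster 3 at 28.4 CPM with pyrvinium and 53.9 CPM with DMSO (-0.92). Cluster 5, which held DMSO cells only and has Ndrg1 and Ero1a among its leading genes, had Psmb10 at 14.3 CPM (11.6 to 17.5) and Tapbp at 46.1 CPM (41.1 to 51.6), both below the other DMSO clusters by point value.

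Tap1 had a log2 ratio of 0.66 in cluster 1 and 0.88 in cluster 3, each with its whole interval above 0. In cluster 2 it was -0.50, from 5 counts with pyrvinium and 76 with DMSO, with an interval that includes 0. Psmb9 in cluster 1 stood at 2.33 CPM (1.69 to 3.13) with pyrvinium and 0.540 CPM (0.111 to 1.58) with DMSO, the DMSO level resting on 3 counts. In cluster 2 its log2 ratio was -0.82, from 1 count with pyrvinium and 19 with DMSO, and in cluster 3 it was 1.22, from 11 and 7 counts, and both intervals include 0. Psmb8 in cluster 1 stood at 0.848 CPM (0.485 to 1.38) with pyrvinium and had 0 counts with DMSO, for which the upper limit is 0.664 CPM. It had 0 counts with pyrvinium and 2 with DMSO in cluster 2, and 3 and 4 counts in cluster 3, too few for a difference to be read.

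The class I genes were then read beside the interferon-stimulated genes in the same thinned cells. Cells were split by their summed count of the 28 interferon-stimulated genes, of which Bst2 alone gave 54.4% of the counts with pyrvinium and 47.2% with DMSO. The split is a range and not a cell type: 338 pyrvinium and 558 DMSO cells had 2 or 3 such counts, next to the boundary of the top class. In pyrvinium cells with 0, with 1 to 2 and with 3 or more such counts (104, 362 and 388 cells), the sum of B2m, H2-K1 and H2-D1 was 917 CPM (837 to 1003), 965 CPM (920 to 1011) and 1216 CPM (1167 to 1266). In DMSO cells (401, 904 and 297 cells) it was 795 CPM (756 to 835), 799 CPM (773 to 825) and 806 CPM (761 to 853).

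The top pyrvinium class thus stood above the 2 other pyrvinium classes with intervals that do not overlap, and the 3 DMSO classes overlapped. B2m alone stood at 302, 301 and 406 CPM over the pyrvinium classes and at 233, 229 and 262 CPM over the DMSO classes. H2-D1 stood at 329, 348 and 437 CPM over the pyrvinium classes and 302, 300 and 282 CPM over the DMSO classes. Before thinning, the median depth of the pyrvinium classes was 28284, 30214.5 and 33794.5 counts and that of the DMSO classes 18102, 18796.5 and 18960 counts, and its part in the pattern was not tested. The difference between the libraries in this pattern was not tested either.

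**Figure D5:**
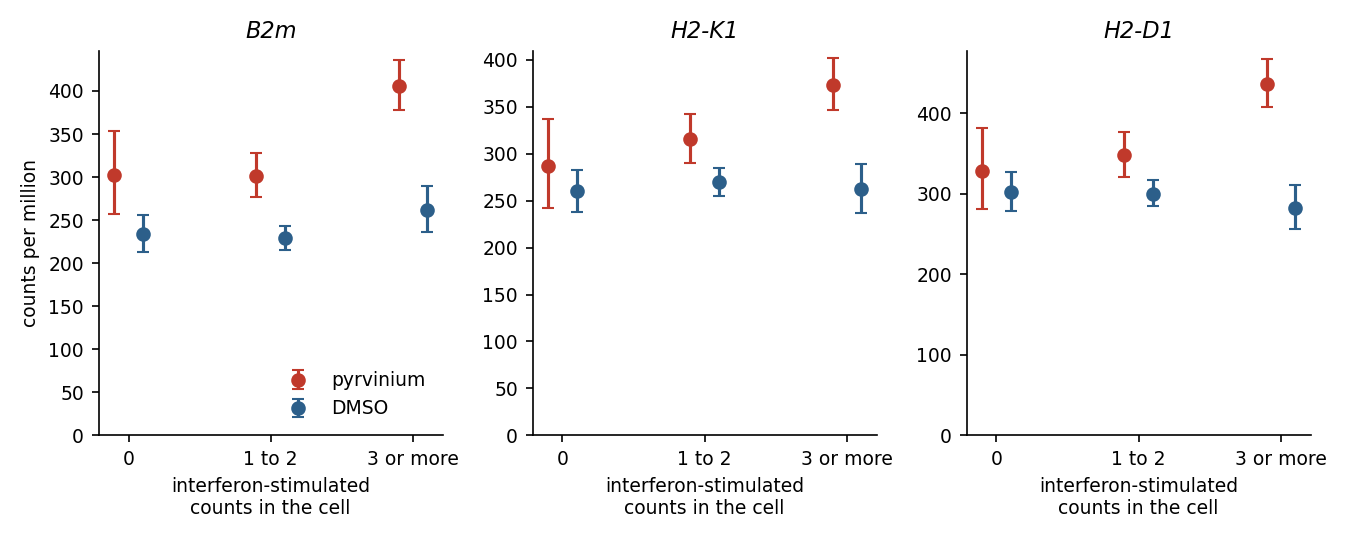
Level of B2m, H2-K1 and H2-D1, each in its own panel, in CPM, in cells with 0, 1 to 2 and 3 or more counts of interferon-stimulated genes after thinning to 5000 counts, pyrvinium (red) left of DMSO (blue), with 95% Poisson intervals. In pyrvinium cells with 3 or more counts B2m stood at 406 CPM, H2-K1 at 373 CPM and H2-D1 at 437 CPM. Over the DMSO classes B2m lay between 229 and 262 CPM, H2-K1 between 260 and 270 CPM and H2-D1 between 282 and 302 CPM.

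The genes whose pattern was most like that of the class I genes were sought among 4562 genes with at least 20 CPM. The pattern was the mean of the 5 members with at least 10 CPM (B2m, H2-K1, H2-D1, Tapbp and Psmb10) over 9 points, each 1 cluster of 1 library. The members were averaged on a log2 scale without equalizing their spread. Psmb10 varied most, from 14.3 to 70.2 CPM, where B2m ran from 195 to 386 CPM. The pattern may thus follow Psmb10 more than the other members, and its part in the correlations was not tested. The highest Pearson correlations were those of Ndufa13 (0.97), Pnkd (0.97), Ndufb9 (0.95), Yjefn3 (0.94) and Cox6a1 (0.94). Ndufa13 and Yjefn3 overlap on the same strand in the GENCODE annotation, so their counts may share reads. The 9 points come from only 2 libraries of unequal depth, and the correlations describe these points. Ndufa13 stood at 506 CPM with pyrvinium and 451 CPM with DMSO, a log2 ratio of 0.17.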

How the data were processed

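Per the labels' protocols, cells were captured with the PIPseq kit. Per the submitters' processing notes, Partek and the genome build GRCm39 were used; the sources used here do not name the aligner, counter or annotation. The deposited matrices hold whole-number counts per gene and barcode, not normalized, and the authors' barcode lists were not reduced to cells. A further allele of the organoids' genotype and some genes that the lists or clusters hold are not reported here.

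A barcode was kept at or above 1/10 of a library's 99th percentile over its 2000 deepest barcodes (13100 counts for pyrvinium, 9320 for DMSO), and all kept barcodes had at least 500 genes. Counts were summed over kept cells and scaled to CPM, with exact Poisson and, for ratios, conditional binomial 95% intervals. Genes with at least 20 counts over both libraries were compared, and a 0 was set to 3 counts. Doublets were not removed in the main values. On simulated Poisson counts for 15586 genes of this comparison, 95.8% of intervals held the true ratio and 1.16% of unchanged genes were called. The intervals are built for Poisson counts, and the simulation held no variation between cells or libraries. It therefore checks the computation and gives no rate of false calls for the real libraries.

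Clustering used 2000 variable genes, each centred and scaled within each library, 30 components, 15 neighbours and Leiden resolution 0.5 (scanpy 1.11.5, scipy 1.17.1, numpy 2.4.6, Python 3.11.15). The members and lists were chosen with earlier results of these data known. All 10 members were named. Of every other list up to 4 genes were named, those with at least 10 CPM in a library and the largest ratio by the interval bound nearest 0. Irf1, Nfya, Stat2, Irf9, Mr1, Cd74, H2-Ab1, Ifne, Ptprc, Lyz2, Nkg7, Pecam1, Kdr, Emcn and Epcam fall outside that rule and were named after their values were seen. Alternatives were other barcode thresholds, scalings, depth ranges, free RNA subtraction, doublet removal, equal cluster weights and other fold limits.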

Additional observations from a re-analysis of the deposited data

How the results depend on the processing

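Every one of the 10 genes kept its direction in all 11 other ways of choosing cells or scaling, and the median log2 ratio of the 10 lay between 0.37 and 0.58 in them. The number at least 1.5-fold higher was 2 in cells from the pyrvinium threshold to 30000 counts (Tap1 and Tap2; 410 pyrvinium and 805 DMSO cells with medians of 19102 and 18586 counts), where 7.47% of all genes were higher. It was 2 with equal weight for each shared cluster (Tap2 and Psmb9), where 1 gene, Psmb10, became lower; of all genes 8.15% were then higher and 20.9% lower. By the limit alone it was 7 higher (14.5% of all genes) and 1 lower (25.3%) at a log2 ratio of 0.32, and 2 higher (3.34%) at 2-fold. B2m came past 1.5-fold, giving 5 genes, without mitochondrial and ribosomal protein genes, with median-of-ratios scaling and without the cells of highest Scrublet score. Its log2 ratio of 0.58 fell to 0.40 in the matched depth range and to 0.44 with equal cluster weights. With the mean over cells Psmb8 had a log2 ratio of 0.97, past the limit, but the interval set around it (-0.03 to 2.06) included 0. That interval, like those with equal cluster weights and after free RNA subtraction, has the width of summed counts. None of these intervals measures the error of its own estimate, and the calls in these settings rest on them. Tap1 came under the limit, at 0.55, after subtraction of the free RNA profile from barcodes of 10 to 100 counts. With the profile from barcodes of 100 to 500 counts it was 0.76. The mean over cells and the subtraction from barcodes of 10 to 100 counts each gave 3 genes. Of all genes, 8.12% and 11.5% were higher in these 2 settings. Nlrc5 had a log2 ratio of -0.19 in the matched depth range instead of -0.89. The causes were not tested. Of the recomputed ratios and shares of single genes, 135 stayed within the interval of the reported value and 55 left it, 35 of these being shares at another thinning depth or unthinned. No paired analysis was possible because each group is 1 library. Psmb8, Psmb9 and Nlrc5 rest on few counts and are limited by depth.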
